A study of Mus musculus with 12 samples.

Results

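A set of 9 antimicrobial and crypt-secretory genes of the small intestine was followed in the duodenum of mice given corticosterone (CORT) or vehicle. They were Lyz1, Mmp7, Ang4 and Itln1, which are products of Paneth cells or shared by Paneth and goblet cells, and the Reg lectin genes Reg1, Reg3a, Reg3b, Reg3g and Reg4. They were taken by gene symbol from the intestine table, which lists 55416 genes, and each of the 9 symbols matched 1 row. All mice were male C57BL6/J, aged 8 weeks at the start. Mice of the CORT group were injected under the skin with 40 mg/kg of CORT, the main glucocorticoid of rodents, daily for 8 weeks, and mice of the Veh group received the DMSO, Tween and water vehicle in the same way. RNA was prepared from 50 mg of whole duodenum, and each group had 3 libraries that the labels call biological replicates, named CORT1 to CORT3 and Veh1 to Veh3 here. The labels do not say whether each library is 1 animal.

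Paneth cells sit at the base of the small intestinal crypts and release granules that hold lysozyme, alpha-defensins and other antimicrobial proteins into the crypt lumen. Reg3 proteins are secreted C-type lectins that bind bacterial surfaces, are made by enterocytes and Paneth cells, and are known to be induced by microbial signals and by IL-22 acting through STAT3. Reg1 is also a product of pancreatic acinar cells, which lie next to the duodenum.

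Levels are given as TPM, relative transcript abundances that are scaled for transcript length and for the total of each library, so that levels of different genes can be set side by side. How many reads stand behind a value is not known. Groups were compared as log2(TPM + 1) with limma over the 13607 genes whose mean reached 1 TPM in at least 1 group, with Benjamini-Hochberg adjustment over all of them. All 9 genes were among those tested. A gene was called changed where its adjusted p did not exceed 0.05 and its fold change exceeded 1.5.

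None of the 9 genes was called, where 2.15% of all tested genes were, 1.23% higher and 0.919% lower. In limma, 0 of the 9 had an unadjusted p under 0.05, where 19.2% of all tested genes did, and adjusted p-values ran from 0.455 to 0.948. The CORT and Veh libraries overlapped for every one of the 9 genes, whereas they did not overlap for 26.4% of all tested genes. The estimate was positive for 6 genes and negative for 3, with a median log2 fold change of 0.29 against -0.01 over all tested genes. The intervals were wide, so that these data neither show a change of these genes nor exclude one of several fold for most of them. The widest 95% interval was that of Reg3b, from -2.14 to 4.47 on the log2 scale, and the narrowest was that of Reg1, from -1.06 to 0.77. In whole tissue, fewer cells of a type and less RNA per cell cannot be told apart.

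**Figure D1:**
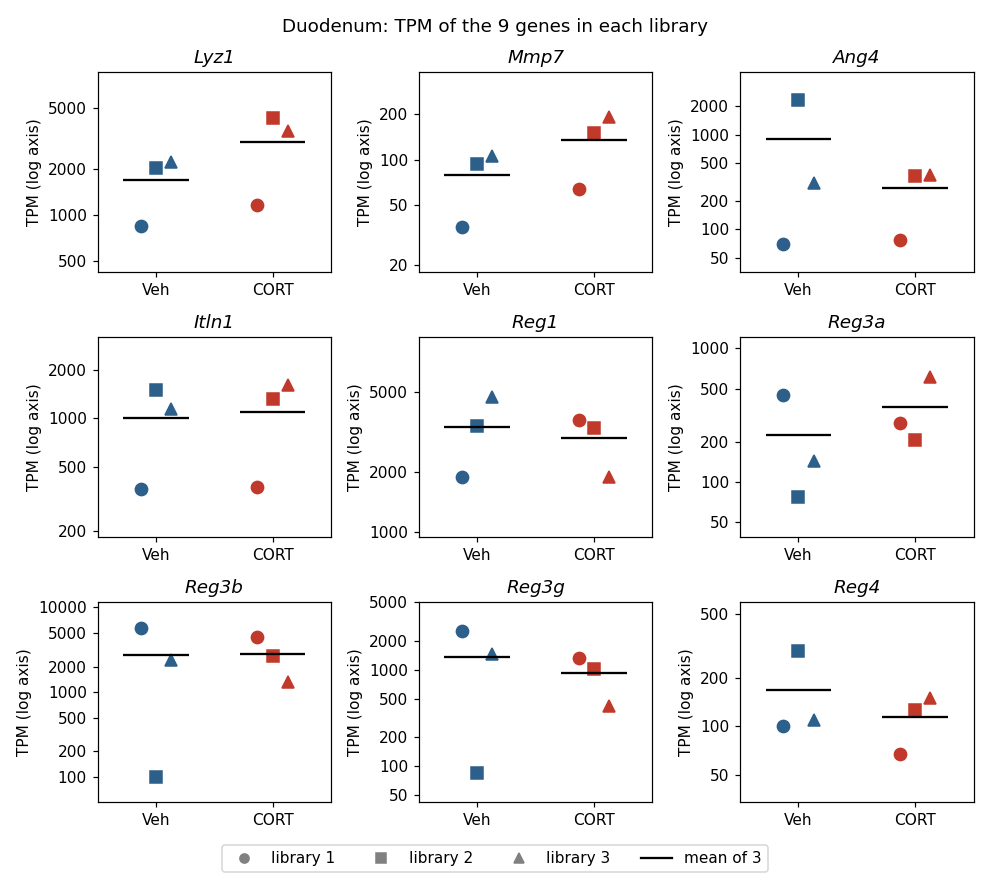
TPM on a log axis of each of the 9 genes in the 3 Veh (blue) and 3 CORT (red) duodenum libraries. Each point is 1 library, its shape gives the library's number within its group, and the horizontal line is the mean of 3. The groups overlap in all 9 panels, CORT1 and Veh1 lie lowest for Lyz1, Mmp7, Ang4 and Itln1, and Veh2 lies far below the other libraries for Reg3b and Reg3g.

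Lyz1 (ENSMUSG00000069515) encodes the lysozyme of Paneth granules, which cuts bacterial peptidoglycan. It was at 1161, 4288 and 3507 TPM in CORT1 to CORT3, and at 843, 2010.3 and 2199 TPM in Veh1 to Veh3. CORT1 and Veh1 were the lowest libraries of their groups, and CORT1 lay below Veh2 and Veh3. The mean was 2985 ± 1627 TPM (SD, n = 3) in the CORT group and 1684 ± 735 TPM (SD, n = 3) in the Veh group, and the gene ranked 53 among the tested genes by mean TPM. The log2 fold change was 0.74 (standard error 0.57, 95% interval -0.60 to 2.08, limma adjusted p = 0.512).

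Lyz1 has a close copy, Lyz2, the lysozyme of macrophages and other myeloid cells. The windows of 100 bases that end at the base before each start site are shown because they show how alike this pair is also outside the transcripts. They are from RefSeq (GRCm38.p6), on the minus strand, at chr10:117292869-117292968 for Lyz1 and chr10:117282273-117282372 for Lyz2. No letter is in capitals, since neither window holds the TATAAA motif that is marked in the windows of the Reg genes.
Lyz1: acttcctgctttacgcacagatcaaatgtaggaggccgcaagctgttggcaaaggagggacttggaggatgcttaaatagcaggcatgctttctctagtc
Lyz2: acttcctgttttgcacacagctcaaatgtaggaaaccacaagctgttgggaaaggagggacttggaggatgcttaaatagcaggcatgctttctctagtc
The windows were 92.0% identical in an alignment, against 42.5% for the unrelated pair Lyz1 and Reg3b. The longest protein-coding transcripts were also 92.0% identical and shared a stretch of 118 bases, and 16.1% of the 50-base words of Lyz1 were found in Lyz2. How reads were divided between the pair is not known. Lyz2 was at 63.7, 131 and 71.4 TPM in CORT1 to CORT3 and 72.6, 87.8 and 116 TPM in Veh1 to Veh3. Lyz1 exceeded Lyz2 by 18.2, 32.8 and 49.1 times in CORT1 to CORT3 and by 11.6, 22.9 and 18.9 times in Veh1 to Veh3.

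Mmp7 (ENSMUSG00000018623) encodes matrilysin, the protease that cuts mouse pro-alpha-defensins into their active form. It was at 64.2, 151 and 191 TPM in CORT1 to CORT3 and at 36.0, 93.8 and 106 TPM in Veh1 to Veh3. As for Lyz1, the lowest libraries were CORT1 and Veh1, and CORT1 lay within the range of the Veh group. The means were 135 ± 64.7 TPM (SD, n = 3) and 78.5 ± 37.3 TPM (SD, n = 3), and the log2 fold change was 0.78 (standard error 0.52, 95% interval -0.45 to 2.01). Its limma adjusted p of 0.455 was the smallest of the 9 genes. The ratio of Mmp7 to Lyz1 varied far less than either gene, from 0.0353 to 0.0553 over the CORT libraries and from 0.0428 to 0.0481 over the Veh libraries.

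Itln1 (ENSMUSG00000038209), intelectin, is a lectin that binds microbial sugars. It was at 372, 1326 and 1605 TPM in CORT1 to CORT3 and at 365, 1501 and 1148 TPM in Veh1 to Veh3. CORT1 and Veh1 were again the lowest of their groups, at nearly the same level, and the other libraries of both groups were interleaved. The means were 1101 ± 647 TPM (SD, n = 3) and 1004 ± 581 TPM (SD, n = 3), and the log2 fold change was 0.11 (standard error 0.70, 95% interval -1.53 to 1.76, limma adjusted p = 0.948).

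Ang4 (ENSMUSG00000060615) encodes a ribonuclease of the angiogenin family with microbicidal activity. It was at 77.8, 362 and 372 TPM in CORT1 to CORT3 and at 70.6, 2297 and 309 TPM in Veh1 to Veh3. CORT1 and Veh1 were low here too, but Veh2 stood far above every other library, so that the Veh libraries spanned a 32.5-fold range and the CORT libraries a 4.79-fold range. The means were 271 ± 167 TPM (SD, n = 3) and 892 ± 1222 TPM (SD, n = 3), and the SD of the Veh group exceeded its mean. The log2 fold change was -0.75 (standard error 1.24, 95% interval -3.67 to 2.17, limma adjusted p = 0.770), and it was 0.56 without Veh2. The ratio of Ang4 to Lyz1 was 1.14 in Veh2 and between 0.0670 and 0.140 in the other libraries.

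The low levels of CORT1 and Veh1 extended to the alpha-defensins, the main antimicrobial peptides of Paneth granules. Of 39 alpha-defensin symbols listed, 29 were in the table, and they summed to 2.40%, 6.59% and 6.55% of all TPM in CORT1 to CORT3 and to 2.19%, 4.82% and 3.78% in Veh1 to Veh3. Of the 18 alpha-defensins with a mean of at least 100 TPM, CORT1 was the lowest CORT library for 18 and Veh1 was the lowest Veh library for 11. Over all tested genes these shares were 40.6% and 27.3%. In the labels, the libraries numbered 1 share only a number, and nothing there ties one to the other.

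Of the 26 alpha-defensins tested, 26 had a positive log2 fold change and 0 were called in limma, with 2 at an unadjusted p under 0.05 and a smallest adjusted p of 0.198. Over all tested genes, 2.15% were called and 19.2% had such a p. The median log2 fold change of the 26 was 0.63, with a range from 0.03 to 1.47, against -0.01 over all tested genes. The groups overlapped for each of the 26, whereas they did not overlap for 26.4% of all tested genes. With 1 library left out, between 19 (without Veh1) and 26 of the 26 estimates were positive and the median ran from 0.25 (without CORT2) to 1.25 (without CORT1), and 0 were called in any of these fits. Defa24, the most abundant, was at 5266, 15877 and 15699 TPM in CORT1 to CORT3 and at 4698, 11831 and 9161 TPM in Veh1 to Veh3, with a log2 fold change of 0.46 (limma adjusted p = 0.661). CORT1 lay between Veh1 and Veh3. The next most abundant, Defa23 and Defa3, had log2 fold changes of 0.36 and 0.25. The alpha-defensins are near-identical copies of each other, so their reads can be split between rows and they are not independent observations, and the level of any single row is uncertain.

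Of the other genes of Paneth granules or the Paneth cell surface, 14 of 20 listed were tested, with 5 positive and 9 negative estimates and a median log2 fold change of -0.12. The most abundant were Mptx2, Lyz2 and Bst1. Mptx2, a pentraxin of Paneth cells, was at 53.0, 475 and 184 TPM in CORT1 to CORT3 and at 51.4, 315 and 123 TPM in Veh1 to Veh3, again lowest in CORT1 and Veh1 (log2 fold change 0.41, limma adjusted p = 0.834). Bst1 had a log2 fold change of 0.68 (limma adjusted p = 0.273), which passed only without Veh1 (1.03, limma adjusted p = 0.0491), and Lyz2 one of -0.11 (limma adjusted p = 0.875). The 1 gene called was Fabp4, at 32.0 ± 6.56 TPM (SD, n = 3) in the CORT group and 12.4 ± 1.79 TPM (SD, n = 3) in the Veh group (log2 fold change 1.28, limma adjusted p = 0.0272). The call of Fabp4 was lost whenever a library other than CORT1 was left out. Fabp4 is best known as a fatty acid binding protein of adipocytes, capillary endothelium and macrophages.

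**Figure D2:**
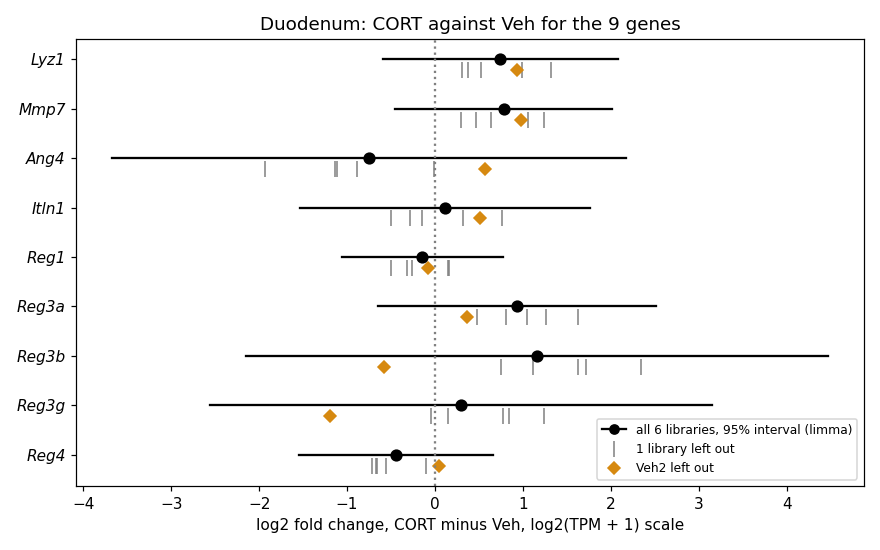
Log2 fold change of CORT against Veh for the 9 genes on the log2(TPM + 1) scale. Black points are the estimates over all 6 libraries with limma's 95% interval, grey ticks are the estimates with 1 library left out, and orange diamonds those without Veh2. Every interval includes 0, and the estimates of Ang4, Reg3b, Reg3g and Reg4 lie on the other side of 0 without Veh2.

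The Reg genes other than Reg4 lie next to each other on mouse chromosome 6, in the order Reg3b, Reg3d, Reg3a, Reg2, Reg1 and Reg3g in RefSeq, with no other protein-coding gene between them. The 100 bases before the start sites of the 4 genes of this cluster that were followed are shown because Reg3b and Reg3g, which had nearly the same order of libraries, could be compared with their neighbors, whose order differed. They are from RefSeq (GRCm38.p6), at chr6:78370785-78370884 on the plus strand for Reg3b, chr6:78468875-78468974 on the minus strand for Reg3g, chr6:78380609-78380708 on the plus strand for Reg3a and chr6:78425883-78425982 on the plus strand for Reg1. Capitals mark the letters TATAAA.
Reg3b: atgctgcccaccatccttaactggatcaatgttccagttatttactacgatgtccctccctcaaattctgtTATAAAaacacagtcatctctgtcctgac
Reg3g: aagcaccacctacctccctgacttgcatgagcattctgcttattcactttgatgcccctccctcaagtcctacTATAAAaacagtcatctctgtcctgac
Reg3a: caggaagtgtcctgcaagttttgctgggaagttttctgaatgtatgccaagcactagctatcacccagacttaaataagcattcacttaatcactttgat
Reg1: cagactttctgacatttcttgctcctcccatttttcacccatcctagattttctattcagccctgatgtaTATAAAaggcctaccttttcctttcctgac
The windows of Reg3b and Reg3g were 71.6% identical, against 45.6% for Reg3a and Reg3b, 46.6% for Reg3a and Reg3g and 47.1% for Reg1 and Reg3b. TATAAA began 29 bases before the start of Reg3b, 27 before that of Reg3g and 30 before that of Reg1, was not found in the window of Reg3a, and was in 7.59% of all 32851 RefSeq windows of 250 bases before a start, read on the strand of the gene. The letters TTCNNNGAA, the general form bound by STAT factors and the same on both strands, were in 7.02% of those windows. Among the 9 genes they were found for Reg3b, 129 bases before the start, and for Ang4, 192 bases before it. The palindromic glucocorticoid response element, searched with its 3-base spacer and 1 free base in each arm, was in 0.387% of windows and in none of those of the 9 genes. The letters AGAACA of its single arm, searched on both strands, were in 16.1% of windows and in those of Lyz1, Reg3a and Reg3b. Mmp7 has windows at different start sites in RefSeq, and so more chances of a match. AGAACA was found only in its downstream window, and TATAAA only in its upstream window, 123 and 26 bases before the start. A match or its absence describes only these letters in this window.

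Reg3b (ENSMUSG00000071356) encodes a secreted lectin that acts mainly on Gram-negative bacteria. It was at 4442, 2676 and 1319 TPM in CORT1 to CORT3 and at 5779, 100.03 and 2405 TPM in Veh1 to Veh3. Veh1 was the highest library of all and Veh2 the lowest, and the CORT libraries lay between them. The Veh libraries spanned a 57.8-fold range and the CORT libraries a 3.37-fold range. The means were 2812 ± 1566 TPM (SD, n = 3) and 2761 ± 2856 TPM (SD, n = 3), nearly equal, while the log2 fold change was 1.16 (standard error 1.40, 95% interval -2.14 to 4.47, limma adjusted p = 0.679). Without Veh2 the log2 fold change was -0.57.

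Reg3g (ENSMUSG00000030017) encodes a lectin that binds the peptidoglycan of Gram-positive bacteria. It was at 1326, 1025 and 424 TPM in CORT1 to CORT3 and at 2522, 84.85 and 1452 TPM in Veh1 to Veh3. The order of the libraries was nearly that of Reg3b, with Veh1 highest and Veh2 lowest, and both Veh1 and Veh3 lay above all CORT libraries. The means were 925 ± 459 TPM (SD, n = 3) and 1353 ± 1221 TPM (SD, n = 3). The log2 fold change of 0.29 (95% interval -2.56 to 3.15, standard error 1.21, limma adjusted p = 0.918) had the opposite sign to the difference of the means, since Veh2 lowers the mean of the log values more than the mean TPM. Without Veh2 it was -1.20, with an unadjusted limma p of 0.0557 and an adjusted p of 0.362.

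The ratio of Reg3g to Reg3b was 0.298, 0.383 and 0.322 in CORT1 to CORT3 and 0.436, 0.848 and 0.604 in Veh1 to Veh3. All 3 CORT libraries were below all 3 Veh libraries, also without Veh2, and the means were 0.334 ± 0.0437 and 0.629 ± 0.207 (SD, n = 3). The exact permutation test gave a two-sided p of 0.1, the smallest that 3 libraries against 3 allow, and an adjusted p of 0.45 over the 9 ratios that were computed, all of them chosen after the values had been seen. Reads of the pair can be told apart by sequence over most of their length, since the longest transcripts were 67.0% identical, with a longest shared stretch of 35 bases and 0 shared words of 50 bases.

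Reg3a (ENSMUSG00000079516), the third Reg3 lectin, was at 278, 206 and 609 TPM in CORT1 to CORT3 and at 450.2, 77.1 and 144 TPM in Veh1 to Veh3. Veh2 was the lowest library, as for Reg3b and Reg3g, but the highest was CORT3, the CORT library in which Reg3b and Reg3g were lowest. The ratio of Reg3a to Reg3b was 0.462 in CORT3 and 0.771 in Veh2, and between 0.0597 and 0.0779 in the other libraries. The means were 364 ± 215 TPM (SD, n = 3) and 224 ± 199 TPM (SD, n = 3), and the log2 fold change was 0.93 (standard error 0.67, 95% interval -0.65 to 2.51, limma adjusted p = 0.489).

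Reg1 (ENSMUSG00000059654), known as lithostathine or pancreatic stone protein, ranked 37 among the tested genes by mean TPM and was the least variable of the 9. It was at 3608, 3306 and 1883 TPM in CORT1 to CORT3 and at 1885, 3393 and 4722 TPM in Veh1 to Veh3. CORT3 and Veh1 were the low libraries and Veh3 the high one, and the ranges of the groups overlapped. The means were 2932 ± 921 TPM (SD, n = 3) and 3334 ± 1420 TPM (SD, n = 3), and the log2 fold change was -0.14 (standard error 0.39, 95% interval -1.06 to 0.77, limma adjusted p = 0.870).

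Because Reg1 is also made in pancreas, it was set beside 31 other genes of pancreatic acinar cells. They summed to 0.00983%, 0.0112% and 0.0152% of TPM in CORT1 to CORT3 and to 0.0139%, 4.39% and 3.56% in Veh1 to Veh3. Ctrb1, an acinar protease precursor, was at 0.35, 0.28 and 0.76 TPM in CORT1 to CORT3 and at 14.46, 7733 and 6026 TPM in Veh1 to Veh3. Reg1 was at 1883 TPM or above in the 4 libraries in which the acinar sum was at or under 0.0152%. How much of the Reg1 level in Veh2 and Veh3 came with the acinar RNA was not tested. With Spink1, Klk1 and Clps, which were left out of the 31 after their values were seen, the acinar sum was between 0.0695% and 0.0968% in those 4 libraries. With all 34 acinar genes removed and the libraries rescaled, all 9 genes kept the sign of their estimates and none was called.

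Reg4 (ENSMUSG00000027876), a Reg family lectin of secretory crypt cells that include enteroendocrine cells, was at 67.45, 126 and 149.8 TPM in CORT1 to CORT3 and at 100.3, 295 and 109 TPM in Veh1 to Veh3. Veh2 was the highest library and CORT1 the lowest, and between them CORT2 and CORT3 lay above Veh1 and Veh3. The means were 115 ± 42.4 TPM (SD, n = 3) and 168 ± 110 TPM (SD, n = 3), and the log2 fold change was -0.44 (standard error 0.47, 95% interval -1.55 to 0.66, limma adjusted p = 0.635). Without Veh2 it was 0.05.

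The Reg genes Reg2 and Reg3d, which were not among the 9, were low. Reg2 was at or under 0.27 TPM in CORT1 to CORT3 and at 0.14, 24.55 and 3.53 TPM in Veh1 to Veh3. Reg3d was at 0, 0.11 and 0.91 TPM in CORT1 to CORT3 and at 0.58, 9.04 and 8.39 TPM in Veh1 to Veh3. Both were highest in the Veh libraries with acinar RNA, and neither was called (limma adjusted p = 0.293 and 0.188). Without Veh1, Reg3d was called, with a log2 fold change of -2.92 (limma adjusted p = 0.0119).

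All 9 genes varied more among libraries of the same group than most genes did. The within-group SD of log2(TPM + 1) was 0.60 for Reg1, 0.74 for Reg4, 0.83 for Mmp7, 0.90 for Lyz1, 1.07 for Reg3a, 1.11 for Itln1, 1.95 for Reg3g, 1.99 for Ang4 and 2.26 for Reg3b. The median was 0.222 over all tested genes and 0.206 over the 1242 genes that averaged 100 TPM or more. Of all tested genes, 92.3% had a smaller SD than Reg1, and 99.6% had a smaller one than Reg3b. The sum of the 9 genes was far steadier, at 1.15%, 1.36% and 1.01% of TPM in CORT1 to CORT3 and at 1.21%, 0.988% and 1.26% in Veh1 to Veh3. Within it, Lyz1, Mmp7, Ang4 and Itln1 together took 0.169% in CORT1 and 0.132% in Veh1 against 0.377% to 0.617% in the other libraries, while Reg3b and Reg3g together took 0.581% in CORT1, 0.833% in Veh1 and 0.0185% in Veh2.

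**Figure D3:**
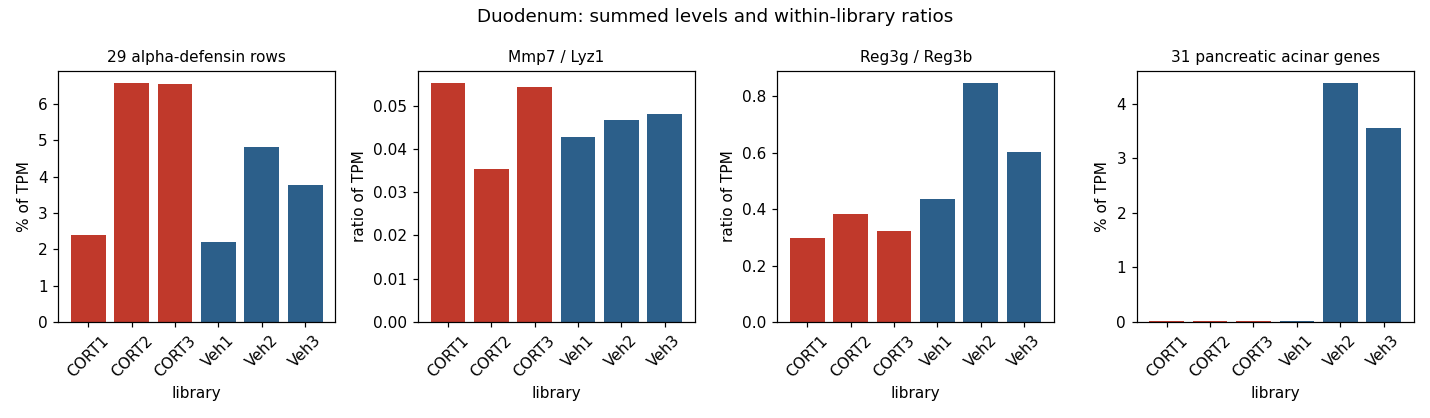
From left to right, the summed share of TPM of 29 alpha-defensin rows, the ratio of Mmp7 to Lyz1, the ratio of Reg3g to Reg3b, and the summed share of TPM of 31 pancreatic acinar genes, in each CORT (red) and Veh (blue) library. Alpha-defensins are low in CORT1 and Veh1, the Mmp7 to Lyz1 ratio stays between 0.0353 and 0.0553, the Reg3g to Reg3b ratio is lower in all 3 CORT libraries, and acinar genes reach 4.39% and 3.56% in Veh2 and Veh3 only.

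Veh2 stood apart from the other Veh libraries in Reg3b, Reg3g and Ang4. Set against the mean of Veh1 and Veh3, with 1 TPM added to each, Veh2 was lower by a log2 difference of -5.34 for Reg3b and of -4.53 for Reg3g, the 2nd and the 4th lowest of the 13607 tested genes. For Reg3a the difference was -1.93, the 86th lowest. Ang4 was higher by 3.59, the 22nd highest. Reg4 was higher by 1.48 and Itln1 by 0.99, while Lyz1 and Mmp7 were each higher by 0.40 and Reg1 by 0.04.

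Some other epithelial defense genes of the lists used here were also high in Veh2, while others were lower there. Retnlb, a goblet cell protein that acts on bacteria, was at 0, 0.27 and 0 TPM in CORT1 to CORT3 and at 1.12, 239 and 0.75 TPM in Veh1 to Veh3. The log2 difference of Veh2 from the other Veh libraries was 6.95 for Retnlb, 4.86 for Gsdmc4, 4.03 for the pentraxin gene Mptx1, 3.52 for the oxidase gene Duox2 and 3.06 for Sprr2a3. In the list of epithelial antimicrobial and barrier genes, the log2 difference was -0.95 for Saa3, -0.84 for Tifa, -0.74 for Lcn2 and -0.65 for Pigr. It was -0.41 for Gsdmd, -0.32 for Nlrp6, -0.03 for Pglyrp1 and -0.002 for Sprr2a1. The other tested genes of this list were higher in Veh2, among them Gsdmc2 (4.59), Duoxa2 (3.92), Fut2 (1.75), Sprr2a2 (1.34) and Ltf (1.11). The list summed to 1.07%, 1.79% and 1.09% of TPM in Veh1 to Veh3, and Sprr2a2 was its most abundant gene in Veh2. The goblet cell markers summed to nearly the same share in each, at 1.30%, 1.31% and 1.32%, and differed in direction. The log2 difference was 1.51 for Spink4, 1.22 for Clca1, 0.49 for Ccl6 and 0.08 for Agr2, and it was -0.09 for Tff3, -0.18 for Muc2, -0.45 for Fcgbp, -0.49 for Zg16 and -0.50 for Ccl9. The genes of this paragraph, other than Lcn2, Pigr, Sprr2a1, Sprr2a2, Spink4, Tff3 and Zg16, were named after their values had been seen. The 31 acinar genes took 4.39% of TPM in Veh2 and 3.56% in Veh3, and their part in these values was not tested.

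**Figure D4:**
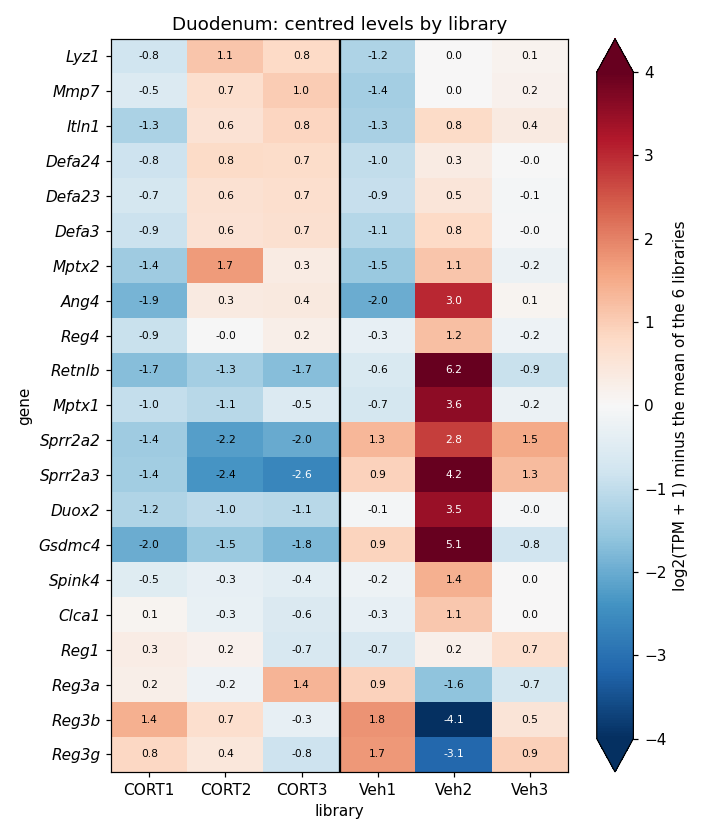
Centered levels, log2(TPM + 1) minus the gene's mean over the 6 libraries, for the 9 genes and for 12 other genes of the lists, chosen with their values known, with 1 column for each library. The numbers are the plotted values, and those beyond 4 or -4 take the end color. The upper rows share low values in CORT1 and Veh1, the middle rows are highest in Veh2, and Reg3b and Reg3g are lowest in Veh2.

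Transcripts of other epithelial genes were measured beside these. Of 23 tested genes of epithelial antimicrobial and barrier defense, 1 rose and 2 fell, with a median log2 fold change of -0.68, and the groups did not overlap for 2 that were higher and 10 that were lower. Of all tested genes, 2.15% were called and 26.4% did not overlap. Lcn2, which binds bacterial siderophores, rose from 2.49, 1.12 and 2.58 TPM in the Veh libraries to 55.7, 75.5 and 51.8 TPM in the CORT libraries (log2 fold change 4.36, limma adjusted p = 0.00309). Sprr2a2 was at 631, 369 and 419.6 TPM in CORT1 to CORT3 and 4221, 11467 and 4836 TPM in Veh1 to Veh3 (log2 fold change -3.74, limma adjusted p = 0.0110), and Sprr2a1 fell with it (log2 fold change -2.56, limma adjusted p = 0.00621). The Sprr2a genes are near-identical copies, so the level of each row is uncertain. Lypd8 and Pigr, which with Sprr2a2 were the most abundant of this list, had log2 fold changes of 0.57 and -0.69 (limma adjusted p = 0.176 and 0.160).

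Of the genes of the IL-22, IL-6 and STAT3 pathway, the cytokine gene Il18 and the receptor gene Il10rb had log2 fold changes of 0.29 and 0.51 (limma adjusted p = 0.369 and 0.121), and neither passed the test. Of 10 tested regulators of secretory cells 0 were called, with 2 at an unadjusted limma p under 0.05. Over all tested genes, 2.15% were called and 19.2% had such a p. Xbp1, a transcription factor of the unfolded protein response that Paneth cells need, was at 104, 122 and 94.6 TPM in CORT1 to CORT3 and 160.5, 155 and 140.4 TPM in Veh1 to Veh3. Its groups did not overlap, which held for 26.4% of all tested genes, and its log2 fold change was -0.51 (standard error 0.14, limma adjusted p = 0.118). Xbp1 thus did not follow the order of libraries seen for Lyz1 and Mmp7.

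Markers of other cell types in the tissue were checked by list. In limma, 0 of 9 goblet cell, 0 of 9 enteroendocrine, 0 of 8 stem cell, 0 of 6 smooth muscle, 0 of 2 neutrophil, 0 of 6 pancreatic islet and 0 of 33 acinar markers tested were called, with 2, 2, 0, 3, 0, 1 and 28 of them at an unadjusted p under 0.05. Over all tested genes, 2.15% were called and 19.2% had such a p. In the enterocyte list 1 of 16 was called, Apob (log2 fold change 1.64). The list summed to 7.24%, 6.25% and 7.16% of TPM in CORT1 to CORT3 and to 5.22%, 3.53% and 3.55% in Veh1 to Veh3, so that the sums did not overlap. Its most abundant genes, Apoa4, Apoa1 and Fabp1, weigh most in the sum and had log2 fold changes of 1.07, 1.02 and 0.76. Of the 16 estimates 11 were positive and 5 negative. The negative ones were Alpi (-0.49), Slc15a1 (-0.43), Anpep (-0.32), Vil1 (-0.16) and Sis (-0.016), named after their values had been seen. Whether the share of enterocytes differed was not tested. Goblet markers took between 1.17% and 1.47% of TPM in all 6 libraries. In the macrophage list 1 of 9 was called, Cd163, at 0.17 to 4.06 TPM (log2 fold change 1.60, and 2.83 with a pseudocount of 0.1). The calls of Apob and Cd163 were lost whenever a library was left out, other than Veh1 for Apob and CORT1 for Cd163. Tff2, a product of the Brunner glands of the proximal duodenum and of gastric mucous cells, was at 0, 0.18 and 0 TPM in CORT1 to CORT3 and at 0.76, 143.65 and 144.94 TPM in Veh1 to Veh3. The part of such differences in the makeup of the pieces of tissue in the values of the 9 genes was not tested. Fkbp5, a gene induced by glucocorticoids, was at 379, 281 and 252 TPM in CORT1 to CORT3 and at 14.0, 8.68 and 23.3 TPM in Veh1 to Veh3, with no overlap (log2 fold change 4.30, limma adjusted p = 0.00450). The log2 fold change of Tsc22d3, which glucocorticoids also induce, was 2.01 (limma adjusted p = 0.0185), and its call was lost without CORT1, CORT2 or Veh2.

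The genes outside the lists whose centered profile over the 6 libraries was nearest to each of the 9 were sought by the mean absolute difference in log2(TPM + 1). For Reg4 these were Igf1 at 0.0658, St6galnac6 at 0.138 and Gm12928 at 0.160. For Reg1 they were Cebpd at 0.116, Slc19a3 at 0.127 and Plet1 at 0.156. For Reg3a they were Cubn at 0.161, Mep1a at 0.277 and Gm17084 at 0.296. For Lyz1, Mmp7 and Itln1 the nearest were Gm8783 and Gm15801, whose values were identical to each other, at 0.205, 0.160 and 0.283, followed by Defa-ps7, Ms4a6d and Clec7a in that order. No gene came as near to Ang4, Reg3b or Reg3g, whose nearest were Ighv7-4 at 0.442, rows named U2 at 0.766 and Gm47327 at 0.490. Several of these genes were low, such as Igf1 at 0.44 to 4.64 TPM, Plet1 at 0.46 to 1.99 TPM and Gm8783 at 1.18 to 7.18 TPM. Others were not, such as Slc19a3 at 9.71 to 22.45 TPM. For low genes the added 1 TPM narrows the differences between libraries, so a near profile need not mean like fold changes. With 13607 genes and 6 libraries some genes lie near by chance, and no test was made.

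In the liver the 9 genes were near or at 0. Reg1, Reg3a, Reg3g and Itln1 were listed at 0 in all 6 liver libraries, and Reg3b was at 0.18, 0 and 0.84 TPM in the CORT livers and at 0, 0 and 0.07 TPM in the Veh livers. Mmp7 was the 1 gene that reached the filter, at 1.88, 1.80 and 0.55 TPM in the CORT livers and at 0, 0.12 and 1.01 TPM in the Veh livers. Its log2 fold change was 0.82 with a standard error of 0.37, and it was not called (limma adjusted p = 0.219), where 6.92% of the genes tested in the liver were.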

How the data were processed

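Bulk RNA-seq of mouse duodenum and liver was used, with 3 CORT and 3 Veh libraries per tissue. SeqPrep and Sickle served the authors for trimming, HISAT2 (orientation mode) for alignment, StringTie for assembly and RSEM for quantification, and the submitters' processing notes name GRCm39. The authors deposited TPM for each gene in each library, from which neither depth nor counting error can be had. Groups came from the sample labels. From TPM, log2(TPM + 1) was fitted in each tissue alone with limma 3.58.1 (lmFit, eBayes with a trend) in R 4.3.3, with treatment as the only term, for genes whose mean reached 1 TPM in at least 1 group, with Benjamini-Hochberg adjustment. The fit was tested on simulated data. Ratios were compared by exact two-sided permutation tests (scipy 1.17.1). Promoter windows came from RefSeq on GRCm38.p6, a different build from that of the tables, and were matched by symbol (9 of 9 genes). Similarity of transcripts was taken from GENCODE M21 with Biopython 1.88.

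The 9 genes and all lists were chosen with earlier results of these data known. The genes named were the 9, the called genes and the 3 most abundant genes of each list, Fkbp5 and Tsc22d3, and the 3 nearest profiles of each of the 9. Not every gene this rule selects is reported here, nor are the counts over the IL-22, IL-6 and STAT3 list, and a gene outside it is said to be chosen after seeing its values. The p-values set the difference between groups against the spread between libraries, which limma moderates over all tested genes. Alternatives were a pseudocount of 0.1, no filter or a mean of at least 5 TPM, the replicate number as a block, removal of acinar genes, median-ratio scaling, eBayes without a trend, unadjusted p-values and leaving out each library. Leaving out Veh2 and Veh3 together was chosen after seeing the data.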

Additional observations from a re-analysis of the deposited data

How the results depend on the processing

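None of the 9 genes was called in any alternative that was fitted for them, and in the alternatives that kept all 6 libraries 0 of the 9 estimates changed sign. With 1 library left out, 6 of 9 changed sign at least once. The log2 fold change then ran from -1.94 to 0.56 for Ang4, from -0.50 to 0.77 for Itln1, from -0.50 to 0.16 for Reg1, from -0.57 to 2.34 for Reg3b, from -1.20 to 1.24 for Reg3g and from -0.72 to 0.051 for Reg4, and 4 of these (Ang4, Reg3b, Reg3g and Reg4) changed sign without Veh2. Lyz1 (0.30 to 1.32), Mmp7 (0.30 to 1.24) and Reg3a (0.36 to 1.63) kept their sign. Without Veh2 and Veh3 together, which leaves 1 Veh library that is assumed to vary like the CORT libraries, the values were 1.62 for Ang4, 0.58 for Reg1, -0.46 for Reg3a, -1.21 for Reg3b, -1.60 for Reg3g and 0.11 for Reg4, and -0.012 for Bst1 and Il18 and 0.21 for Lyz2. With 1 library left out, the other named genes that changed sign, none of them called, ran from -0.012 to 0.81 (Defa23), -0.25 to 0.74 (Defa3), -0.34 to 1.23 (Mptx2) and -0.42 to 0.091 (Lyz2). The calls of Sprr2a2, Fabp4, Apob, Cd163 and Tsc22d3 were lost with no filter and with the replicate block (adjusted p = 0.0561, 0.0631, 0.0968, 0.0631 and 0.0774). The causes were not tested.

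Of all intestine genes 292 were called. The count was 52 with no filter, 62 with the replicate number as a block, 1395 with unadjusted p-values, 10 without Veh2 and Veh3, and between 66 (without Veh3) and 237 (without Veh1) with 1 library left out, and leaving out any library but Veh1 lowered it over 1.5 times. In the liver, 810 genes were called, 307 with the replicate block, 283 with no filter, and between 247 and 831 with 1 library left out. The labels do not say whether the replicate numbers pair the intestine libraries. Across genes, the deviations from the group means correlated at 0.05, 0.07 and -0.004 for libraries with the same number. For libraries with different numbers the correlations ran from -0.083 to 0.036. With 3 libraries per group, such values cannot decide whether the numbers pair the libraries. With the block the unadjusted limma p was 0.0013 for Mmp7 (adjusted 0.0859) and 0.00692 for Lyz1 (adjusted 0.145). Depth is unknown, so no limit of detection can be given, and with 3 libraries per group the intervals of Ang4, Reg3b and Reg3g span several fold in both directions.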

Other observations

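Among genes outside the lists, chosen after their values were seen, the mast cell proteases Mcpt1 and Mcpt2 and the phospholipase gene Pla2g4c shared the high level in Veh2. Mcpt1 was at 3.56, 0.92 and 2.69 TPM in CORT1 to CORT3 and at 2.63, 141.69 and 4.36 TPM in Veh1 to Veh3. Mcpt2 was at 57.14 TPM in Veh2 and at or under 1.04 TPM in the other 5 libraries. Pla2g4c was at 93.65 TPM in Veh2 and at or under 0.73 TPM elsewhere. Against the mean of Veh1 and Veh3 the log2 difference of Veh2 was 5.97 for Pla2g4c, 4.99 for Mcpt1 and 4.97 for Mcpt2, the 3rd, the 7th and the 8th highest of all tested genes, in the library in which Reg3b and Reg3g were lowest and Ang4 and Retnlb highest. None of the 3 genes was called between the groups (limma adjusted p = 0.413, 0.417 and 0.499).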
